A study of Mus musculus with 12 samples.

Results

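The genes described are the receptors that signal through the common gamma chain, together with interleukin-15 (IL-15), a ligand of that family, and related receptor chains. They were chosen by name, with earlier results of these data known, as 10 genes: Il2ra, Il2rb, Il2rg, Il15, Il15ra, Il7r, Il4ra, Il21r, Il13ra1 and Jak3. Probe sets paired with a single symbol were found for 8 of the 10, out of 19938 genes measured that way. Il2rg and Jak3 had no such probe set and were not analysed here. RNA was measured on Affymetrix GeneChip Mouse Gene 1.0 arrays, 1 array per sample, in 4 groups of 3 arrays. The groups were dendritic cells with LPS (GM-DC LPS), dendritic cells left unstimulated (GM-DC unstimulated), macrophages with LPS (GM-MF LPS) and macrophages left unstimulated (GM-MF unstimulated). All came from tibia and femur marrow of C57B/6 mice, grown for 6 days at 20 ng/ml of GM-CSF, a cytokine that drives myeloid growth. Stimulated cells received lipopolysaccharide (LPS), a bacterial ligand of Toll-like receptor 4, at 10 ng/ml for 4 hours. The labels give no age or sex of the mice, and how the GM-DC and GM-MF fractions were separated is not given in the sources used here.

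The common gamma chain, the product of Il2rg, pairs with a private chain for each of several cytokines, and the kinases Jak1 and Jak3 bound to the chains phosphorylate STAT transcription factors. IL-2 and IL-15 share the beta chain Il2rb and differ in their alpha chains, Il2ra (CD25) and Il15ra. Dendritic cells and macrophages are known to hold IL-15 on their surface bound to Il15ra and to present it to neighbouring NK and T cells. Il4ra pairs with the gamma chain to bind IL-4, or with Il13ra1 to bind IL-4 and IL-13, and signals mainly through Stat6.

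Of the 8 genes the one furthest above GM-MF in GM-DC was Il2ra, 14.8-fold with LPS and 49.9-fold without LPS. Il13ra1, Il15 and Il21r were lower in GM-DC in both conditions, the Il21r call with LPS being lost under 5 of 22 alternatives. LPS raised Il15 and Il15ra in both cell types, by 2.70-fold and 2.01-fold in GM-DC and by 3.52-fold and 3.61-fold in GM-MF. Il2ra rose with LPS in GM-MF, where its unstimulated signal was not shown to lie above background. Il7r fell with LPS in GM-DC and Il21r fell with LPS in GM-MF. Il2rb stayed under the array medians in all 12 arrays.

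The RefSeq table of assembly GRCm38.p6 places the members on 5 chromosomes, with a pair of close neighbours on 2 of them. Il2ra lies at chr2:11642792-11693194 and Il15ra at chr2:11705172-11733985, with 11977 bases between them. Il4ra lies at chr7:125552271-125579474 and Il21r at chr7:125603252-125634397, with 23777 bases between them. Il7r and Il2rb are on chromosome 15, Il15 on chromosome 8 and Il13ra1 on chromosome X. Promoter windows of 300 bases, 250 before and 50 from the transcript start on, were matched by symbol in RefSeq for 6 of the 8 measured members, with 2 windows for Il15ra, and not for Il15 or Il2rb. The windows below are those that hold a searched motif (Il2ra, Il4ra, Il7r) and the first of Il15ra, shown because it rose with its ligand. Capitals mark the motif letters found:
Il2ra (chr2:11642542-11642841, plus strand): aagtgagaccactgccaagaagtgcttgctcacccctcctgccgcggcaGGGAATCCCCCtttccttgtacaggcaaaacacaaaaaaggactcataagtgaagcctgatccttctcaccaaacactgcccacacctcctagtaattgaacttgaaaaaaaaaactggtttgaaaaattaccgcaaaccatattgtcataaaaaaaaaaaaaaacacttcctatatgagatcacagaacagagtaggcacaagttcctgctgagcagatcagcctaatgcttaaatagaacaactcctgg
Il15ra (chr2:11705043-11705342, plus strand): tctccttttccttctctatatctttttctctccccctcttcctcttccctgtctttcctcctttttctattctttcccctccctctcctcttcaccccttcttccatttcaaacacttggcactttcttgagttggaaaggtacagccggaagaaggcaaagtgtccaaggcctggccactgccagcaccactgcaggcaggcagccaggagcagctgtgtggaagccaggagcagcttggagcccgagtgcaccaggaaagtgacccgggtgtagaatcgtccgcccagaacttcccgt
Il4ra (chr7:125552021-125552320, plus strand): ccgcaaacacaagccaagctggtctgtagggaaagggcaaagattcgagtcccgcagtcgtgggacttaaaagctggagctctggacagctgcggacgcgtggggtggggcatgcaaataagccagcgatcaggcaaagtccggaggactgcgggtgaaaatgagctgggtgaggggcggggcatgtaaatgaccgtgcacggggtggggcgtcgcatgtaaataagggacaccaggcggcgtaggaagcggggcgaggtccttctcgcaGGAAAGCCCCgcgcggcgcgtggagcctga
Il7r (chr15:9529827-9530126, minus strand): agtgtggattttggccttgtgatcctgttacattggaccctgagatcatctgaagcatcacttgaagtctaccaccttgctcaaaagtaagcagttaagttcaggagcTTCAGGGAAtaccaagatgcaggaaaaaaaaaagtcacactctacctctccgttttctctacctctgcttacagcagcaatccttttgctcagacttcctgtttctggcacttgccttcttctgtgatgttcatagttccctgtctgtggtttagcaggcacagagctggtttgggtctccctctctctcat

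Both strands of each window were searched for 3 motifs. The NF-kB consensus, bound by factors that Toll-like receptors activate, was found in the Il2ra window in overlapping matches on both strands from -201 to -191 and in the Il4ra window from 20 to 29 on the minus strand, counted from the transcript start as 0. It was held by 4.51% of 32851 promoter windows. The STAT core TTCNNNGAA, a palindrome, was found in the Il7r window from -142 to -134 and is held by 8.3% of windows. The interferon response core GAAANNGAAA, held by 3.44% of windows, was found in none of the windows of the measured members, and neither Il15ra window held any of the 3 motifs. These matches are a description of letters in the windows only.

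Arrays of the same group correlated at 0.993 to 0.996 across genes and arrays of different groups at 0.898 to 0.988. Values are log2 expression. Array medians over all probe sets lay between 4.41 and 4.54, and a value near or under them was not shown to lie above background. Dendritic cell markers (Flt3, Zbtb46, Ccr7, Fscn1, Itgax) were higher in GM-DC for 4 of 5 in both conditions, the exception being Itgax, which was lower (-2.20 ± 0.266 without LPS). Macrophage markers (Csf1r, Mertk, Itgam, Fcgr1, Adgre1) were lower in GM-DC for 5 of 5. Of all genes, 18.0% were higher and 16.2% lower in GM-DC without LPS, and 20.9% higher and 15.4% lower with LPS. Levels of a list averaged over its genes on each array lay for T and NK cell markers, of which 9 of 10 were measured, at 3.88 to 3.98 in GM-DC LPS, 3.73 to 3.96 in GM-DC unstimulated, 3.82 to 3.92 in GM-MF LPS and 3.67 to 3.94 in GM-MF unstimulated. B cell markers, of which 6 of 7 were measured, lay between 3.80 and 4.13 on every array. No marker was at 0, since the scale has none, and in each group 6 or 7 of the 9 T and NK cell markers averaged under the array medians. Of these 9, 2 were higher and 2 lower in GM-DC without LPS, and 2 higher and 1 lower with LPS, beside the shares of all genes given above. Thy1, a surface protein of T cells, lay above the array medians, at 6.31 ± 0.362 in GM-DC LPS, 6.41 ± 0.424 in GM-DC unstimulated, 5.32 ± 0.106 in GM-MF LPS and 5.11 ± 0.185 in GM-MF unstimulated. It was higher in GM-DC, as Il2ra was (0.99 ± 0.2 with and 1.30 ± 0.2 without LPS), and so was the T cell receptor chain Cd3g (0.41 ± 0.133 in each condition), under the array medians. In the other direction Cd2 (-0.63 ± 0.126) and Klrb1c (-0.45 ± 0.146) were lower in GM-DC without LPS, both under the array medians. Cd247 was lower in GM-DC with LPS (-0.39 ± 0.116), at 4.44 ± 0.109 in GM-DC LPS, near the medians. Cd3e, another T cell marker above the array medians, was not called between the cell types in either condition. It averaged 4.96 ± 0.331 in GM-DC LPS, 4.86 ± 0.155 in GM-DC unstimulated, 5.02 ± 0.124 in GM-MF LPS and 4.98 ± 0.248 in GM-MF unstimulated. The B cell gene Cd22 was lower in GM-DC (-1.35 ± 0.184 with and -1.71 ± 0.184 without LPS), and Cd79b was higher with LPS (0.91 ± 0.146). Of the 6 B cell markers 0 were higher and 1 lower in GM-DC without LPS, against 18.0% and 16.2% of all genes. With LPS 1 was higher and 1 lower, against 20.9% and 15.4%. In each group 4 of the 6 averaged under the array medians. Of 8 neutrophil markers 1 was higher and 5 lower in GM-DC with LPS, against 20.9% and 15.4% of all genes. Without LPS 1 was higher and 2 lower, against 18.0% and 16.2% of all genes. The most negative difference was that of S100a8 (-1.50 ± 0.115 with and -0.94 ± 0.115 without LPS). The part of such cells in the members' differences was not tested. In these bulk samples fewer cells of a type and less RNA per cell cannot be told apart. Nothing in the labels ties replicates to different mice or cultures, and p-values therefore cover array-to-array spread that could be technical.

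**Figure D1:**
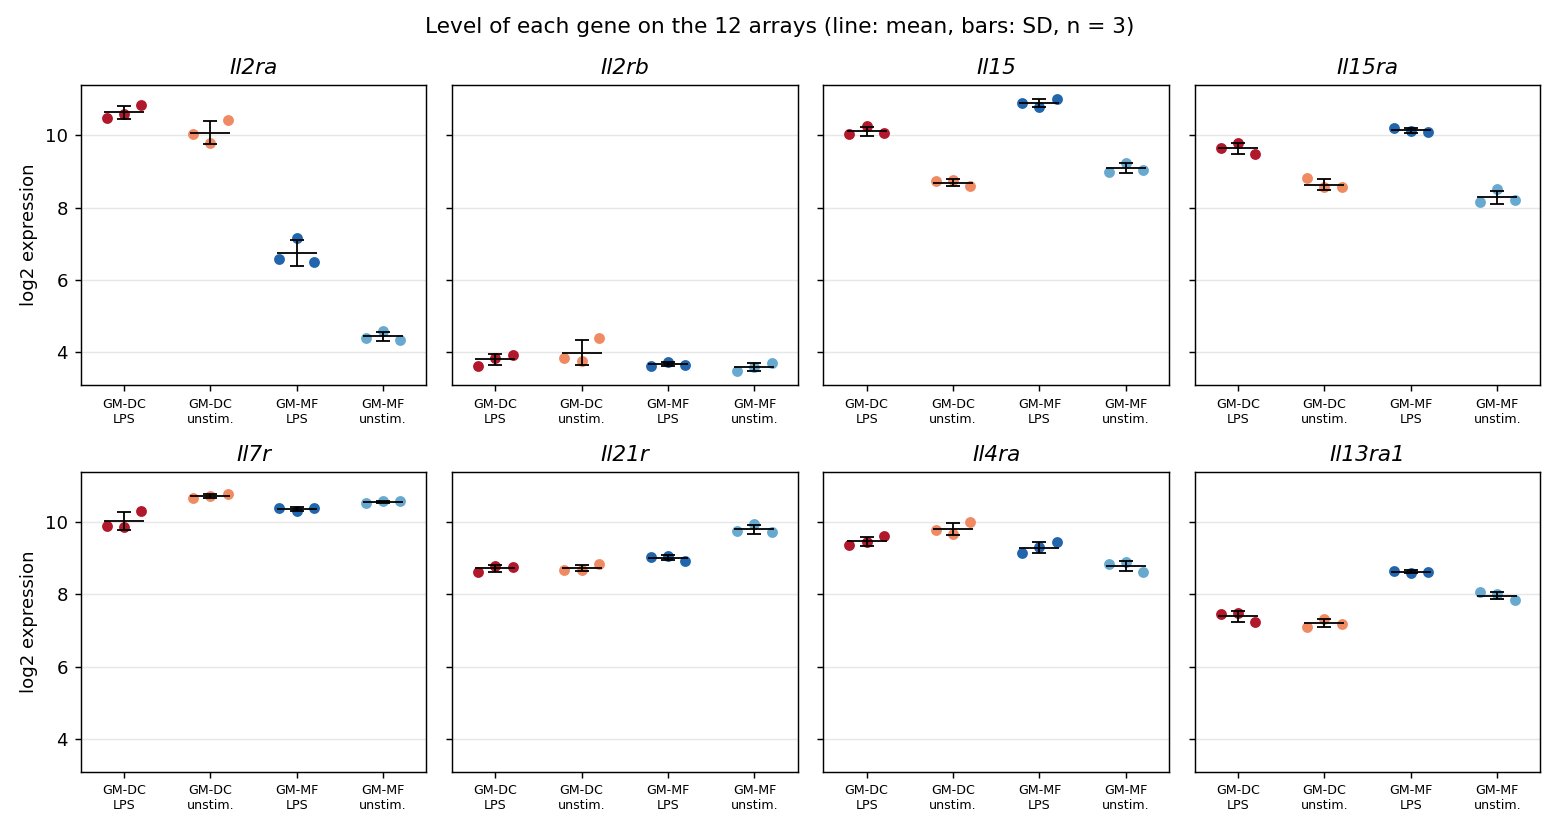
Level of the 8 measured genes (log2 expression, vertical axis) on each of the 12 arrays, by group, with points for arrays, a line for the mean and bars for the SD (n = 3). Il2ra has means of 10.64 and 10.08 in GM-DC with and without LPS, and 6.74 and 4.44 in GM-MF with and without LPS, while Il2rb lies between 3.47 and 4.39 on every array.

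The question of how the cell types differ was addressed by the difference GM-DC minus GM-MF, tested with limma on all 12 arrays with Benjamini-Hochberg adjustment over 19938 genes. Genes with an adjusted p under 0.05 are termed called. Without LPS 7 of 8 members were called, against 34.2% of all genes. Of the 8, 4 were higher in GM-DC (18.0% of all genes) and 3 lower (16.2% of all genes). The members' median difference was 0.25, against -0.0114 over all genes. With LPS 6 of 8 were called, against 36.3% of all genes. Of the 8, 1 was higher in GM-DC (20.9% of all genes) and 5 lower (15.4% of all genes), with a median of -0.31 for the members and 0.00183 over all genes. As the members were chosen with earlier results of these data known, these counts are a description and measure no excess over all genes. Values after ± are standard errors of the limma fit for differences, and SDs over 3 arrays for levels.

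Il2ra, the alpha chain that gives the IL-2 receptor its high affinity, separated the cell types furthest. It read 10.48, 10.59 and 10.84 in GM-DC LPS, 10.04, 9.78 and 10.43 in GM-DC unstimulated, 6.57, 7.16 and 6.50 in GM-MF LPS and 4.40, 4.59 and 4.34 in GM-MF unstimulated. The 4 groups did not overlap, and the order of the means was GM-DC LPS, GM-DC unstimulated, GM-MF LPS and GM-MF unstimulated. The difference between GM-DC and GM-MF was 5.64 ± 0.183 without LPS (49.9-fold, adjusted p = 4.86e-12), rank 8 from the highest of all genes, and 3.89 ± 0.183 with LPS (14.8-fold, adjusted p = 2.16e-10, rank 42). Unstimulated GM-MF lay at the array medians, with 2 of 3 arrays under the lowest of them. The 49.9-fold value, and every Il2ra difference taken against that group, thus has a term that was not shown to lie above background.

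LPS raised Il2ra in GM-MF by 2.30 ± 0.183 (4.93-fold, adjusted p = 6.49e-07). In GM-DC the 3 values with LPS lay above the 3 without, but the difference of 0.55 ± 0.183 was not called (adjusted p = 0.0794, 95% interval 0.16 to 0.94). With the replicate number as a block within each cell type it was called (adjusted p = 0.0137, in a range of 0.0137 to 0.31 over 23 alternatives). It was also called without GM-DC unstimulated replicate 3 (0.73, adjusted p = 0.022) and without GM-MF LPS replicate 2 (adjusted p = 0.0361). The LPS responses differed between the cell types by -1.75 ± 0.259 (GM-DC minus GM-MF, adjusted p = 0.000528).

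Il2rb, the beta chain that IL-2 and IL-15 share, had readings of 3.63, 3.84 and 3.92 in GM-DC LPS, 3.83, 3.75 and 4.39 in GM-DC unstimulated, 3.63, 3.74 and 3.65 in GM-MF LPS and 3.47, 3.60 and 3.70 in GM-MF unstimulated. All 12 readings were under the array medians, and neighbouring groups in the order of means overlapped, although the unstimulated groups of the cell types did not overlap each other. Without LPS the difference of GM-DC from GM-MF was 0.40 ± 0.147 (1.32-fold, adjusted p = 0.0496). That call was lost under 12 of 20 alternatives, whose adjusted p ran from 0.019 to 0.261. Among them were leaving out GM-DC unstimulated replicate 3 (difference 0.20), any of the GM-MF arrays, or GM-DC LPS replicate 2 or 3. With LPS the difference was 0.12 ± 0.147 (adjusted p = 0.598), and neither LPS response was called (-0.19 ± 0.147 in GM-DC and 0.08 ± 0.147 in GM-MF).

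Markers of mast cells and basophils, which also grow from marrow, were examined beside Il2ra. Of 7 measured, 1 was higher in GM-DC without LPS, against 18.0% of all genes, the growth factor receptor Kit (3.06 ± 0.206, adjusted p = 1.06e-08). With LPS 1 was higher in GM-DC, Kit (0.87 ± 0.206), against 20.9% of all genes. The histamine-forming enzyme Hdc was the 1 lower with LPS (-3.53 ± 0.174), against 15.4% of all genes. Hdc averaged 4.63 ± 0.248 in GM-DC LPS, near the array medians. Kit averaged 6.14 ± 0.453 in GM-DC LPS, 7.33 ± 0.399 in GM-DC unstimulated, 5.27 ± 0.0187 in GM-MF LPS and 4.27 ± 0.132 in GM-MF unstimulated. It was higher in GM-DC in both conditions, as Il2ra was. Its signal in unstimulated GM-MF, under the array medians, was not shown to lie above background. The list averaged 3.87 to 3.97 in GM-DC LPS, 3.89 to 4.24 in GM-DC unstimulated, 4.32 to 4.40 in GM-MF LPS and 3.64 to 3.78 in GM-MF unstimulated. In GM-MF 2 of the 7 rose with LPS, Hdc (3.43 ± 0.174) and Kit (0.99 ± 0.206), against 6.54% of all genes. Both enter the list level of GM-MF LPS. In each group 4 or 5 of the 7 markers averaged under the array medians. The part of such cells in the Il2ra difference was not tested.

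Il15, the ligand, showed 10.03, 10.27 and 10.07 in GM-DC LPS, 8.73, 8.77 and 8.59 in GM-DC unstimulated, 10.89, 10.80 and 11.02 in GM-MF LPS and 8.99, 9.25 and 9.04 in GM-MF unstimulated. No groups overlapped, and GM-MF was the higher cell type in each condition. GM-DC differed from GM-MF by -0.40 ± 0.109 without LPS (adjusted p = 0.00934) and by -0.78 ± 0.109 with LPS (adjusted p = 2.97e-05). LPS raised Il15 by 1.43 ± 0.109 in GM-DC (2.70-fold, adjusted p = 5.18e-07) and by 1.82 ± 0.109 in GM-MF (3.52-fold, adjusted p = 3.88e-08). The difference of these responses, -0.38 ± 0.154, was not called (adjusted p = 0.177, 95% interval -0.71 to -0.06).

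Il15ra, the chain that holds IL-15 on the presenting cell, stood at 9.65, 9.80 and 9.49 in GM-DC LPS, 8.81, 8.56 and 8.56 in GM-DC unstimulated, 10.21, 10.13 and 10.09 in GM-MF LPS and 8.17, 8.51 and 8.20 in GM-MF unstimulated. The groups did not overlap, and the higher cell type was GM-MF with LPS and GM-DC without. LPS raised it by 1.00 ± 0.12 in GM-DC (2.01-fold, adjusted p = 5.52e-05) and by 1.85 ± 0.12 in GM-MF (3.61-fold, adjusted p = 9.34e-08), and the responses differed by -0.85 ± 0.169 (adjusted p = 0.00527). With LPS GM-DC was lower than GM-MF by a difference of -0.50 ± 0.12 (adjusted p = 0.00363). Without LPS GM-DC was higher by 0.35 ± 0.12 (adjusted p = 0.034). That last call was lost when the other groups were left out of the fit (adjusted p = 0.0614) and without GM-DC unstimulated replicate 1, GM-MF unstimulated replicate 1 or GM-MF unstimulated replicate 3 (adjusted p = 0.12 to 0.159, in a range of 0.00816 to 0.159 over 22 alternatives). Il15 and Il15ra were both called higher with LPS in each cell type.

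**Figure D2:**
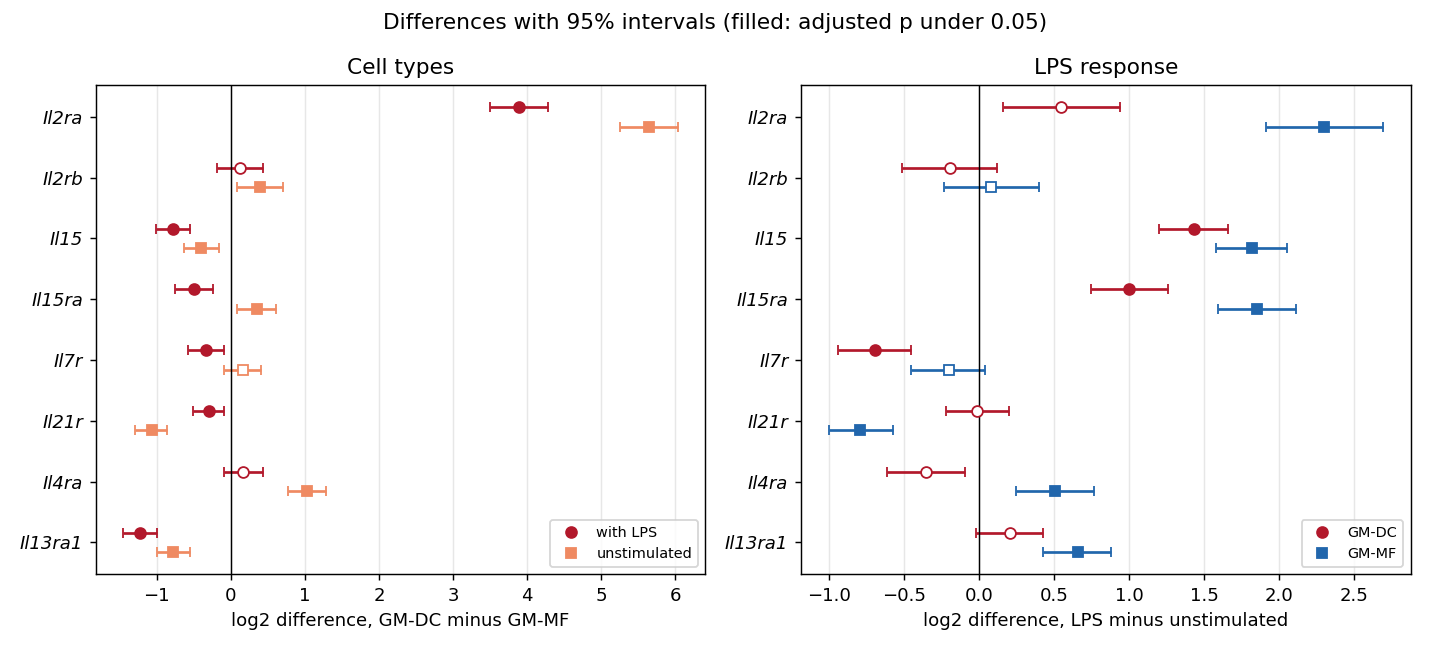
Log2 differences of the 8 genes with 95% intervals, GM-DC minus GM-MF at left (circles with LPS, squares unstimulated) and LPS minus unstimulated at right (circles GM-DC, squares GM-MF), filled where the adjusted p was under 0.05. Il2ra lies at 3.89 and 5.64 in the left panel, and Il15 and Il15ra lie between 1.00 and 1.85 in the right panel.

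Il7r, the alpha chain of the receptors for IL-7 and for thymic stromal lymphopoietin (TSLP), had readings of 9.90, 9.86 and 10.32 in GM-DC LPS, 10.67, 10.72 and 10.77 in GM-DC unstimulated, 10.39, 10.30 and 10.39 in GM-MF LPS and 10.52, 10.58 and 10.58 in GM-MF unstimulated. All groups were far above the array medians, and the LPS groups of both cell types overlapped. LPS lowered Il7r in GM-DC by a difference of -0.69 ± 0.115 (1.62-fold, adjusted p = 0.000988). In GM-MF the difference was -0.20 ± 0.115 (adjusted p = 0.297), and the difference of the responses, -0.49 ± 0.162, was not called (adjusted p = 0.0902). It was called with eBayes trend (adjusted p = 0.0244), among genes of higher mean or with 3 arrays above the table median (0.0464 and 0.0497), and without GM-DC LPS replicate 3 (0.00636), in a range of 0.00636 to 0.211.

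The cell types differed in Il7r with LPS by -0.33 ± 0.115 (GM-DC minus GM-MF, adjusted p = 0.0344). That call was lost after quantile normalization (-0.12, adjusted p = 0.532), with the other groups left out (0.084), and without GM-DC LPS replicate 1 or 2 or GM-MF LPS replicate 1 or 3 (0.0895 to 0.15), in a range of 0.0013 to 0.532 over 22 alternatives. Without LPS the difference of 0.16 ± 0.115 was not called (adjusted p = 0.345). Quantile normalization gave 0.39 there (adjusted p = 0.0257, in a range of 0.0257 to 0.531).

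Il21r, the private chain of the IL-21 receptor, measured 8.61, 8.78 and 8.77 in GM-DC LPS, 8.68, 8.68 and 8.83 in GM-DC unstimulated, 9.05, 9.07 and 8.93 in GM-MF LPS and 9.75, 9.94 and 9.73 in GM-MF unstimulated. The GM-DC groups overlapped each other and lay under both GM-MF groups. GM-DC was lower than GM-MF without LPS by a difference of -1.07 ± 0.0995 (2.10-fold, adjusted p = 4.02e-07). LPS lowered Il21r in GM-MF by a difference of -0.79 ± 0.0995 (1.72-fold, adjusted p = 5.24e-05). In GM-DC the difference was -0.01 ± 0.0995 (adjusted p = 0.981, 95% interval -0.22 to 0.20), and the responses differed by 0.78 ± 0.141 (adjusted p = 0.00264). With LPS GM-DC was lower by a difference of -0.30 ± 0.0995 (adjusted p = 0.0282). That call was lost after quantile normalization (0.0796), with the other groups left out (0.0522), and without GM-DC LPS replicate 1 or GM-MF LPS replicate 1 or 2 (0.0774 to 0.119), in a range of 0.00517 to 0.119.

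Il4ra, the alpha chain of the IL-4 and IL-13 receptors, gave 9.36, 9.45 and 9.61 in GM-DC LPS, 9.79, 9.67 and 10.01 in GM-DC unstimulated, 9.15, 9.31 and 9.44 in GM-MF LPS and 8.84, 8.90 and 8.63 in GM-MF unstimulated. The LPS groups of the cell types overlapped, and the unstimulated groups lay at the ends of the range. Without LPS GM-DC was higher by 1.03 ± 0.121 (2.05-fold, adjusted p = 5.15e-06). With LPS the difference was 0.17 ± 0.121 (adjusted p = 0.331, 95% interval -0.09 to 0.43). LPS raised Il4ra in GM-MF by 0.51 ± 0.121 (1.43-fold, adjusted p = 0.00758). In GM-DC the difference was -0.35 ± 0.121, not called (adjusted p = 0.0937), although it was called after quantile normalization (adjusted p = 0.0379), with eBayes trend (0.0423) and among genes of higher mean (0.0486), in a range of 0.0379 to 0.308. The responses differed by -0.86 ± 0.171 (adjusted p = 0.00495).

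Il13ra1, the chain that joins Il4ra in the receptor for IL-13, read 7.47, 7.50 and 7.23 in GM-DC LPS, 7.10, 7.32 and 7.17 in GM-DC unstimulated, 8.66, 8.60 and 8.63 in GM-MF LPS and 8.06, 8.01 and 7.86 in GM-MF unstimulated. Both GM-MF groups lay above both GM-DC groups, which overlapped each other. GM-DC was lower by a difference of -0.78 ± 0.105 without LPS (1.71-fold, adjusted p = 2.31e-05) and -1.23 ± 0.105 with LPS (2.34-fold, adjusted p = 1.64e-07). LPS raised it in GM-MF by 0.66 ± 0.105 (1.58-fold, adjusted p = 0.000416). In GM-DC the difference of 0.21 ± 0.105 was not called (adjusted p = 0.319). The difference of the responses, -0.45 ± 0.149, was not called (adjusted p = 0.0901), though cyclic loess (0.0211), quantile normalization (0.0484) and both filters on low values (0.0421 and 0.0456) gave a call, in a range of 0.0211 to 0.212. Without LPS Il4ra was higher in GM-DC and its partner Il13ra1 lower in GM-DC.

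Counts over the members in the LPS comparisons ran as follows. In GM-DC 3 of 8 members were called, against 9.72% of all genes, 2 higher with LPS (5.23% of all genes) and 1 lower (4.49% of all genes), with a median difference of 0.10 for the members and -0.00788 over all genes. In GM-MF 6 of 8 were called, against 17.4% of all genes, 5 higher with LPS (6.54% of all genes) and 1 lower (10.8% of all genes), with a median difference of 0.58 for the members and -0.0183 over all genes. The interaction, which asks whether the LPS responses of GM-DC and GM-MF differ, called 4 of 8 members, against 7.59% of all genes, 3 lower (3.06% of all genes) and 1 higher (4.53% of all genes). Those were Il2ra, Il15ra and Il4ra, with the more positive response in GM-MF, and Il21r, with the more negative response in GM-MF. These comparisons share arrays, so the counts are not independent of each other. The choice of members with earlier results known limits these counts too.

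**Figure D3:**
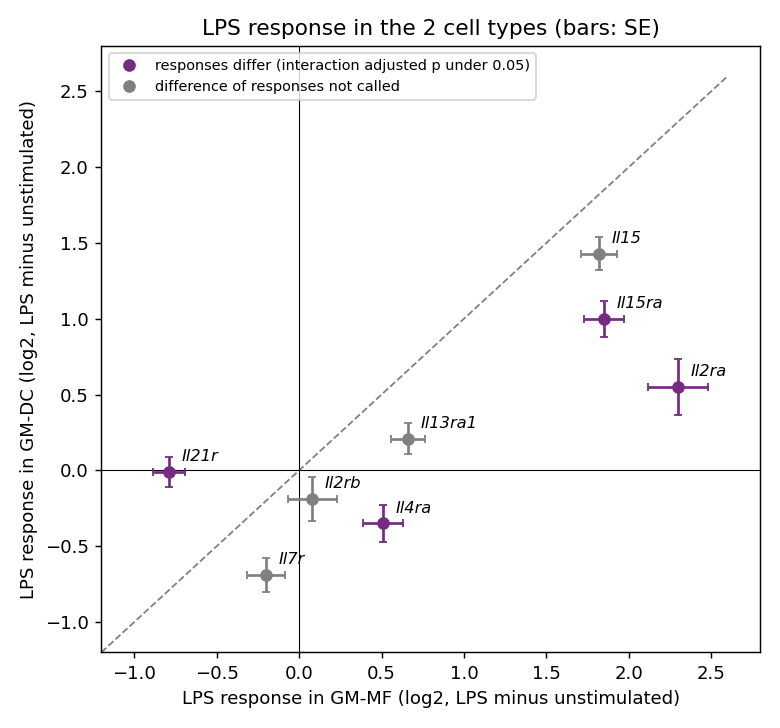
LPS response in GM-DC (log2, vertical axis) against that in GM-MF (log2, horizontal axis) for the 8 genes, with bars for the SE and a dashed line of equal response. Il2ra, Il15ra and Il4ra lie below the line and Il21r above it, all 4 with an interaction adjusted p under 0.05. The axes share no array.

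Of 7 further ligand genes, 5 encode ligands of common gamma chain receptors (Il2, Il4, Il7, Il9, Il21) and 2 encode ligands of receptors that share Il4ra or Il7r (Il13, Tslp). Of these 7, 6 averaged under the array medians in every group. Without LPS 2 of 7 were higher in GM-DC and 5 did not pass, and with LPS 1 was lower and 6 did not pass, against 34.2% of all genes called without LPS and 36.3% with LPS. Tslp, which signals through Il7r and Crlf2, was called lower in GM-DC with LPS (-1.24 ± 0.128, adjusted p = 1.24e-06). It averaged 2.82 ± 0.0844 in the GM-DC arrays and 4.05 ± 0.216 in the GM-MF arrays with LPS, both under the array medians. Il13, at 5.58 ± 0.244 in GM-DC unstimulated and 4.96 ± 0.242 in GM-MF unstimulated, was higher in GM-DC (0.62 ± 0.152, adjusted p = 0.0045), as was Il7 (0.58 ± 0.112), under the medians. LPS raised 2 of 7 ligands in GM-MF, Tslp (1.33 ± 0.128) and Il13 (0.82 ± 0.152), against 6.54% of all genes. In GM-DC 0 of 7 passed by limma, against 9.72% of all genes (1 of 7 at an unadjusted p under 0.05, and 1 of 7 with eBayes trend). There Il13 gave -0.06 ± 0.152. Of the 3 other receptor genes (Il9r, Il13ra2, Crlf2) 1 was lower in GM-DC in each condition, against 15.4% of all genes with LPS and 16.2% without. This was Crlf2, the partner of Il7r in the TSLP receptor (-0.72 ± 0.13 with and -0.53 ± 0.13 without LPS). For LPS 0 of these 3 passed by limma in either cell type, against 9.72% of all genes in GM-DC and 17.4% in GM-MF. At an unadjusted p under 0.05 it was also 0 of 3.

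Among 14 measured of 15 listed signalling genes, which are kinases, STAT factors, inhibitors and the adaptor Irs2, 9 were higher and 4 lower in GM-DC without LPS (median 0.63), against 18.0% and 16.2% of all genes. With LPS 4 were higher and 4 lower (median -0.06), against 20.9% and 15.4% of all genes. Socs2, an inhibitor that STAT5 induces, was higher in GM-DC in both conditions (2.86 ± 0.113 with LPS and 2.75 ± 0.113 without). Cish, another STAT5-induced inhibitor, was higher in GM-DC without LPS (1.53 ± 0.147). Ptpn6, a phosphatase that dampens receptor signalling, was lower in GM-DC without LPS (-1.28 ± 0.104), as was Socs3 (-1.05 ± 0.156), an inhibitor of JAK kinases. With LPS Socs3 (-2.94 ± 0.156) and Socs1 (-2.27 ± 0.112), which both bind JAK kinases, were lower in GM-DC, and Stat6, the factor of IL-4 signalling, was higher (0.83 ± 0.132).

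LPS raised 3 and lowered 1 of the 14 in GM-DC, against 5.23% and 4.49% of all genes, and raised 9 and lowered 1 in GM-MF, against 6.54% and 10.8% of all genes. Socs3 (1.06 ± 0.156 in GM-DC and 2.94 ± 0.156 in GM-MF) and Stat5a (1.05 ± 0.158 in GM-DC and 1.91 ± 0.158 in GM-MF), a factor activated by IL-2, IL-7 and IL-15, were the top of both. The gene lower in GM-DC, the kinase Tyk2 (-0.36 ± 0.108, adjusted p = 0.0474), lost its call without 10 of the 12 arrays in turn (adjusted p = 0.0359 to 0.19 over the 12), with the replicate number as a block across all groups (0.065), after cyclic loess (0.0772) and with the other groups left out (0.0887). With the block within each cell type it was called (0.0281). The gene lower in GM-MF was Stat6 (-0.50 ± 0.132, adjusted p = 0.0155), a call lost without GM-MF unstimulated replicate 2 or GM-MF LPS replicate 3 (adjusted p = 0.0548 and 0.0812). The LPS responses differed for 8 of the 14, against 7.59% of all genes, among them Socs3 (-1.88 ± 0.22) and Cish (-1.71 ± 0.208), more positive in GM-MF, and Ptpn6 (0.65 ± 0.147), more positive in GM-DC.

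**Figure D4:**
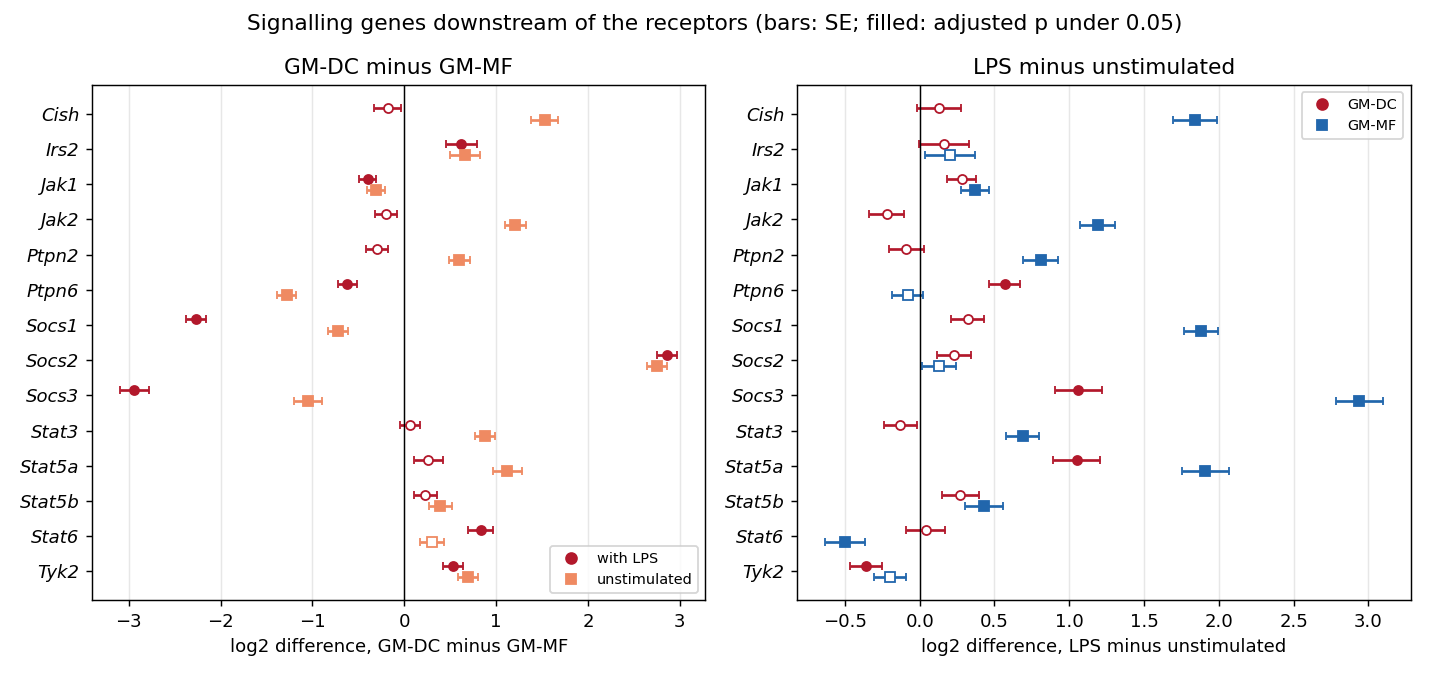
Log2 differences of the 14 measured signalling genes with SE bars, GM-DC minus GM-MF at left (circles with LPS, squares unstimulated) and LPS minus unstimulated at right (circles GM-DC, squares GM-MF), filled where the adjusted p was under 0.05. Socs2 lies at 2.86 and 2.75 in the left panel, and Socs3 in the right panel lies at 1.06 for GM-DC and 2.94 for GM-MF.

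Genes linked to STAT5, 6 measured, were split without LPS, 2 higher and 2 lower in GM-DC, and likewise with LPS, against 34.2% of all genes called without LPS and 36.3% with LPS. With LPS Bcl2l1 (2.31 ± 0.183) and Ccnd2 (0.77 ± 0.178) were higher in GM-DC and Bcl2 (-0.44 ± 0.114) and Mcl1 (-0.40 ± 0.0936) lower. The cyclin gene Ccnd2 (1.54 ± 0.178) and the cytokine gene Osm (0.74 ± 0.167) were higher without LPS and the survival gene Bcl2 lower (-1.40 ± 0.114). Bcl2 averaged 4.57 ± 0.0283 in GM-DC LPS and 4.46 ± 0.134 in GM-DC unstimulated, near the array medians. Its differences are thus against a signal not shown to lie above background. Bcl2l1, which encodes the survival protein Bcl-xL, rose with LPS in GM-DC (2.32 ± 0.183), and its responses differed between the cell types (2.61 ± 0.259, adjusted p = 1.52e-05). Ccnd2 rose in both cell types (1.75 ± 0.178 in GM-DC and 2.52 ± 0.178 in GM-MF). The other gene lower in GM-DC without LPS was Mcl1 (-0.31 ± 0.0936), a survival gene. Its call was lost after quantile normalization (-0.11 with and -0.04 without LPS). Without LPS it was also lost when leaving out GM-DC unstimulated replicate 1 or 2 or GM-MF unstimulated replicate 2. LPS raised 2 and lowered 0 of the 6 in GM-DC, against 5.23% and 4.49% of all genes. In GM-MF it raised 3 and lowered 1, against 6.54% and 10.8% of all genes. There Pim1 rose (0.99 ± 0.165) and Bcl2 fell (-0.85 ± 0.114). The LPS responses differed for 2 of the 6, Bcl2l1 and Bcl2 (0.96 ± 0.161), both more positive in GM-DC, against 7.59% of all genes.

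Of 15 genes linked to IL-4 and STAT6, 3 were higher and 8 lower in GM-DC without LPS (median -0.71), against 18.0% and 16.2% of all genes. With LPS 3 were higher and 9 lower (median -0.79), against 20.9% and 15.4% of all genes. Irf4, a transcription factor (4.22 ± 0.214 with and 3.20 ± 0.214 without LPS), and the chemokine Ccl22 (2.18 ± 0.228 with and 3.47 ± 0.228 without LPS) had the most positive differences. Arg1, which breaks down arginine (-5.59 ± 0.202 with and -5.07 ± 0.202 without LPS), and Chil3, a chitinase-like protein (-5.28 ± 0.201 with and -5.02 ± 0.201 without LPS), had the most negative differences. Arg1 averaged 4.16 ± 0.147 in GM-DC LPS and 4.47 ± 0.197 in GM-DC unstimulated, at or under the array medians, so its differences are against a signal not shown to lie above background. In GM-DC 4 of 15 were higher with LPS, against 5.23% of all genes, among them the mannose receptor Mrc1 (2.44 ± 0.164) and the transglutaminase Tgm2 (1.20 ± 0.129). Mrc1 averaged 6.16 ± 0.372 in GM-DC LPS and 3.72 ± 0.18 in GM-DC unstimulated, the second of these under the array medians. In GM-MF, against 6.54% of all genes higher and 10.8% lower, 2 were higher, Ccl22 (1.57 ± 0.228) and Klf4, and 2 lower, Egr2 (-1.97 ± 0.138) and Pparg, the calls of Klf4 and Pparg being lost without some single arrays. Arg1 and Chil3 are also widely used as macrophage genes, and the macrophage markers were lower in GM-DC for 5 of 5. Dendritic cell markers were higher in GM-DC for 4 of 5. The part of cell type in this list, for genes higher or lower in GM-DC, was not tested.

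The genes whose levels followed each member most closely over the 12 arrays were found by Pearson correlation, a description over arrays that share their group structure. For Il2ra these were Cyria and Ktn1 (r = 0.997 for both), for Il15 Tnfsf15 (0.987) and Cflar (0.986), and for Il15ra Kpna3 (0.967) and Il6 (0.966). Il4ra was followed by Kit (0.959) and Kdm6b (0.953), Il21r by Sdhb (0.982) and Arpc1b (0.975), and Il13ra1 by Lrrc59 and Hnrnph2 (0.991 for both). Il7r had Pacs2 (0.934) and Hlx (0.919), and Il2rb, whose readings were all low, Prg2 (0.934) and Smg5 (0.902).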

How the data were processed

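The values as deposited are log2 expression. The submitters' processing notes name RMA and R 3.0.2, whose settings are not given in the sources used here. Base 2 was inferred from values running between 1.18 and 13.7. No detection call per probe set was at hand, so background was judged only by the array medians. Of 35556 probe sets, 21789 had a single symbol in the platform annotation, and each gene was kept by the probe set with the highest mean over all 12 arrays, which left 19938 genes. Each member found had a single such probe set.

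Differences were tested with limma 3.58.1 in R 4.3.3: lmFit on 4 group means, contrasts.fit and eBayes, two-sided, with 8 residual degrees of freedom and Benjamini-Hochberg adjustment over all genes, at an adjusted p under 0.05. The fit was tested on simulated data. Figures were drawn with matplotlib 3.10.9. The number of arrays per group, 3, limits the precision.

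The members and gene lists were chosen with earlier results of these data known, so their counts beside all genes are a description only. Per list and comparison, the genes named were drawn from up to 2 called genes per direction with the largest differences. With none called, they were drawn from up to 2 genes of highest mean. Not every gene that meets this rule is named. Per member the 2 genes most correlated with it are named.

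Replicate numbers repeat across groups. Arrays were centred on group means. Those of the same number then correlated across LPS conditions at 0.119 to 0.363 within GM-DC and at 0.104 to 0.257 within GM-MF. Arrays of other numbers correlated at -0.25 to 0.164 within GM-DC and at -0.216 to 0.0254 within GM-MF. The best match was the own number for 2 of 3 GM-DC LPS arrays and 3 of 3 GM-MF LPS arrays. Between GM-DC and GM-MF same-number arrays correlated at -0.168 to 0.0117 without LPS and at -0.0047 to 0.156 with LPS. The reported fit used no pairing, and the numbers entered only as a block among the alternatives. Alternatives were median centring, cyclic loess, quantile normalization, eBayes with trend or robust, 2 filters on low values, averaged probe sets, only the arrays compared, the replicate number as a block, and leaving out each array.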

Additional observations from a re-analysis of the deposited data

Results flagged for a closer look

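The LPS responses of GM-DC and GM-MF differed by limma's interaction test for 4 of the 8 measured genes, against 7.59% of all genes. Values are differences GM-DC minus GM-MF on the log2 scale. Il2ra differed by -1.75, Il15ra by -0.85 and Il4ra by -0.86, each with the more positive response in GM-MF. The Il2ra signal of unstimulated GM-MF, which enters its value, was not shown to lie above background. Il21r differed by 0.78, with a fall in GM-MF alone passing the test. All 4 kept their call under each of the 22 alternatives run. Among these were fits without each of the 12 arrays in turn, which gave -1.90 to -1.54 for Il2ra. Beyond that, whether single arrays stand apart was not tested.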

How the results depend on the processing

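The number of members called stayed within 1.5 times of the reported count in all 112 recomputations. It ran from 5 to 8 for GM-DC minus GM-MF without LPS, 4 to 6 with LPS, 3 to 4 for LPS in GM-DC, 6 to 6 for LPS in GM-MF and 4 to 6 for the interaction. Of 886 recomputed differences of single members, 841 kept direction and call, 27 lost their call, 15 gained one and 3 changed sign. The sign changes were of differences near 0. In many of these settings the difference itself could not change, and only its adjusted p could. Those were both eBayes settings, the filters, averaged probe sets, the blocks, only the groups compared, and leaving out arrays of other groups. The tally thus overstates how far the differences were tried. With the replicate number as a block across all groups the members called were 7, 6, 3, 6 and 4 in the same order, and with the block within each cell type, chosen after seeing the data, 4, 6 and 4 for the LPS comparisons and the interaction. Il2ra in GM-DC was the only member whose call changed with that block.

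Leaving out each array gave for LPS in GM-DC a range of -0.314 to 0.00509 for Il2rb and -0.0421 to 0.0437 for Il21r. The same range was -0.167 to 0.081 for Il13 and -0.00452 to 0.139 for Crlf2 in GM-DC, and -0.0863 to 0.113 for Il9r in GM-MF. Alternatives for the lists were added after seeing the data. Both filters on low values left only 1 ligand gene tested, so their counts concern that gene and not the list. It was called between cell types without LPS but not with LPS, and for LPS in GM-MF and the interaction. For LPS in GM-DC 1 ligand was called with eBayes trend and 1 with the block within each cell type, and 0 to 1 without each array. The ligand interaction count ran from 1 to 2 and that of the IL-4 and STAT6-linked genes from 3 to 6 without each array. The other causes were not tested. Signals under the array medians, as for Il2rb and most ligands, were not shown to lie above background.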
